A study of Mus musculus with 32 samples.

Results

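The carcinoembryonic antigen-related cell adhesion molecules (Ceacam) described here in the mouse small intestine were Ceacam1, Ceacam2, Ceacam10 and Ceacam20. Further Ceacam genes on the chips are given below as a list. These are 4 of the 18193 genes that the platform annotation names singly, and they were represented by 15 of the 35977 probe sets naming a gene on the Affymetrix chips 430A and 430B, 14 on 430A and 1 on 430B. Ceacam10 was represented by 3 probe sets, Ceacam1 alone by 8, Ceacam2 alone by 1 and Ceacam20 by 1, and 2 more named both Ceacam1 and Ceacam2. The family was selected on the measured level of Ceacam10, which differed strongly among the groups, so the Ceacam10 values are given as a description without a test, and tests were made for the other 12 probe sets only.

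The mice were WT C57BL/6J, Fabp2-/-, Fabp6-/- and Fabp2-/-;Fabp6-/-, the gene-disrupted lines being kept on the C57BL/6J background, and they lacked the gene in every cell of the body rather than in the intestine only. Males and females of each genotype were taken at 10 weeks of age after a fast, on a standard diet and without treatment. Total RNA came from the whole length of the flushed small intestine, and the RNA of 2 mice was pooled, so that 2 pools stood for the 4 mice of each of the 8 groups and 16 pools were hybridized in all. Fabp2 encodes the intestinal fatty acid-binding protein and Fabp6 the ileal bile acid-binding protein. In bulk tissue, fewer cells of a type and less RNA per cell cannot be told apart.

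Ceacam proteins are members of the immunoglobulin superfamily that bind each other at the cell surface. Ceacam1 is a transmembrane receptor of epithelia, endothelia and leukocytes whose long cytoplasmic tail carries inhibitory tyrosine motifs that recruit the phosphatases Ptpn6 and Ptpn11, and in the mouse it is also the receptor of the hepatitis coronavirus. Ceacam2 is a close relative encoded beside it. Ceacam20 is a transmembrane protein of the intestinal brush border and a substrate of the phosphatase Ptprh. Ceacam10 lacks a membrane anchor and is secreted, and in the mouse it is best known from the seminal vesicle.

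All 4 genes lie on chromosome 7 in the RefSeq annotation of GRCm38.p6, whereas Fabp2 lies on chromosome 3 and Fabp6 on chromosome 11. Ceacam1 and Ceacam2 are immediate neighbours with 0 protein-coding genes between them, 23 separate Ceacam10 from Ceacam1, and 135 separate Ceacam20 from Ceacam10. The start regions of Ceacam10 and Ceacam1 are shown because they were nearly the same in sequence while the levels of the genes followed different patterns over the groups. Each window holds 250 bases before and 50 bases after the start, 5′ to 3′ on the strand of the gene, from RefSeq on GRCm38.p6, and the capitals mark the longest run shared by both, 114 bases. Ceacam10 has 2 RefSeq start entries, of which 1 is shown.
Ceacam10 (chr7:24776917-24777216, plus strand): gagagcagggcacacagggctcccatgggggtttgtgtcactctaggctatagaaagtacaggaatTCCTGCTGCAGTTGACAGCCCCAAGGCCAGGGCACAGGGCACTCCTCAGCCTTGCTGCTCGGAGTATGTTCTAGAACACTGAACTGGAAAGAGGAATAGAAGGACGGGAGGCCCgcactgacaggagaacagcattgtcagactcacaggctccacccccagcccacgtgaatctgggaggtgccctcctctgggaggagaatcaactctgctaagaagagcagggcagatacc
Ceacam1 (chr7:25477576-25477875, minus strand): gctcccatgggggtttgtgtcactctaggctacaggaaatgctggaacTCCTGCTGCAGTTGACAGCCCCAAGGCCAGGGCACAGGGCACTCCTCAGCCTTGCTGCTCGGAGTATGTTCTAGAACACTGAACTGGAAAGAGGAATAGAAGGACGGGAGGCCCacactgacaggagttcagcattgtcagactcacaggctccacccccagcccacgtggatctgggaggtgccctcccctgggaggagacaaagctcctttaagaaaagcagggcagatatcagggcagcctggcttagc
Over 278 aligned bases the windows of Ceacam10 and Ceacam1 were 94.6% identical. The window of Ceacam2 matched that of Ceacam1 over 157 aligned bases (85.4% identical) and that of Ceacam10 over 175 (84.0%), and that of Ceacam20 gave matches of at most 89 aligned bases with the others. The E-box CACGTG occurred once in the windows of Ceacam10 and Ceacam1, outside the capitals, and in neither of the other two, against 7.15% of all 32851 RefSeq windows of this length. Read on both strands, the steroid receptor half-site AGAACA occurred 3 times in the window of Ceacam10, 2 times in that of Ceacam1 (both within the capitals, which Ceacam10 shares), 5 times in that of Ceacam2 and 0 times in that of Ceacam20, and it is in 19.0% of all windows. The nuclear receptor half-site AGGTCA (in 16.3%) and the STAT motif TTCNNNGAA (in 8.3%) matched none of the 4. A match is a description of the sequence only.

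The deposited values were log2 signals made by robust multichip average (RMA), with array medians of 6.57 to 6.62 (430A) and 5.89 to 5.92 (430B). The signal of Fabp2 was 8.98 to 9.98 in pools of mice lacking it and 12.58 to 13.05 in the others. Fabp6 was 4.80 to 5.04 in 7 of the 8 pools of mice lacking it, 9.21 in the second female library labelled Fabp6-/- (replicate 2), and 10.50 to 11.32 in the others, so the main values of the Fabp6-/- females are also given without it. Xist and Eif2s3y matched the labelled sex in 16 of 16 pools. Over 100 probe sets that both chips share, 14 of the 16 pools matched themselves best, and WT female replicate 2 and Fabp2-/- female replicate 1 did not. Which array of these pools carries the wrong label, if any, was not tested. WT female replicate 2 is a control of the comparison that held the Ceacam1 calls, which are also given without it, and the summed signals of gene lists draw on both chips.

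Ceacam10 was higher in males than in females of every genotype by its 2 probe sets with the widest spread, was highest in Fabp2-/- males and WT males, and was lowest in Fabp6-/- and Fabp2-/-;Fabp6-/- females. In probe set 1417074_at, the WT male pools had log2 signals of 7.29 and 7.35 and the WT female pools 6.21 and 5.81. The Fabp2-/- male pools had 7.85 and 7.16 and the female pools 7.11 and 6.83. The male and female pools did not overlap in either genotype, although the lower Fabp2-/- male pool lay only just above the higher female pool. In Fabp6-/- mice the male pools had 6.72 and 6.68 and the female pools 5.18 and 5.46. In Fabp2-/-;Fabp6-/- mice the male pools had 6.03 and 5.76 and the female pools 5.49 and 5.51. Males of both genotypes again lay above their females, and the pools of the Fabp2-/-;Fabp6-/- males overlapped with those of the WT females.

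**Figure D1:**
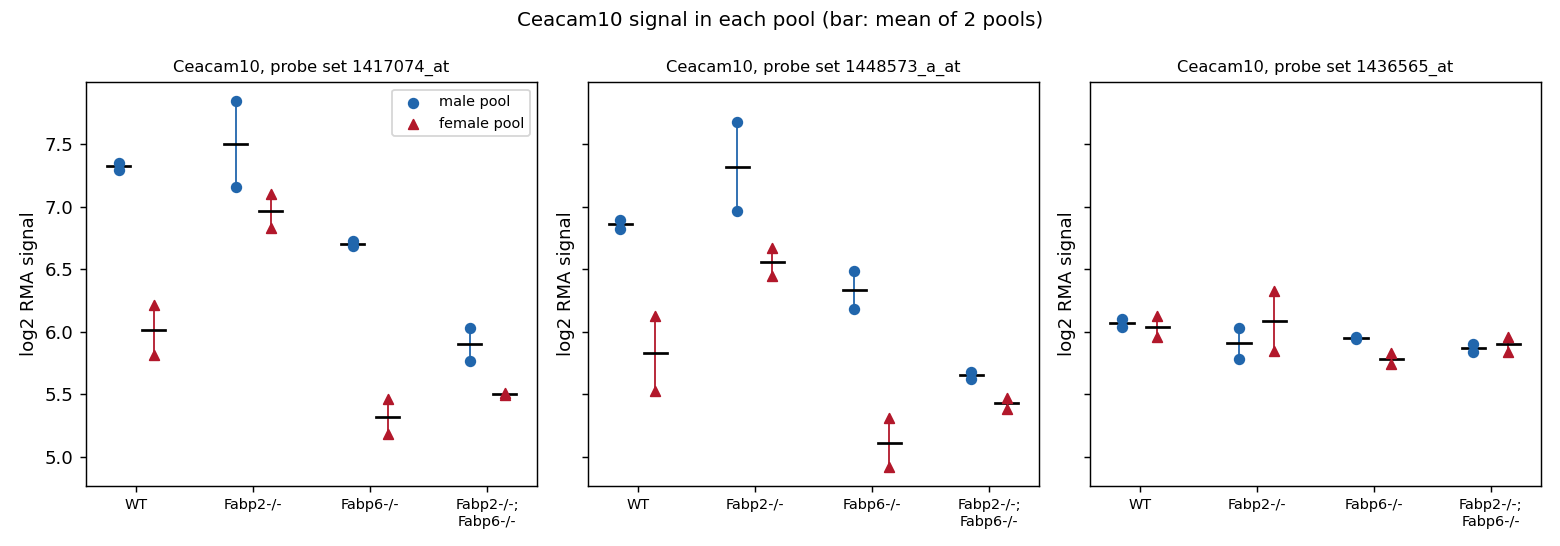
Log2 RMA signal (y axis) of the 3 Ceacam10 probe sets in each pool, by genotype (x axis), with males as blue circles and females as red triangles, a black bar at the mean of 2 pools and a line joining the pools of a group. In 1417074_at and 1448573_a_at all male pools lie above the female pools of their genotype, and 1436565_at stays between 5.74 and 6.32.

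Ordered by the mean log2 signal of 1417074_at (± SD, n = 2), Fabp2-/- males had 7.50 ± 0.49, WT males 7.32 ± 0.04, Fabp2-/- females 6.97 ± 0.20 and Fabp6-/- males 6.70 ± 0.03. WT females followed with 6.01 ± 0.28, Fabp2-/-;Fabp6-/- males with 5.90 ± 0.19, Fabp2-/-;Fabp6-/- females with 5.50 ± 0.01 and Fabp6-/- females with 5.32 ± 0.20. Among neighbours in this order, the pools overlapped between Fabp2-/- and WT males and between WT females and Fabp2-/-;Fabp6-/- males, and the other neighbours did not overlap. Probe set 1448573_a_at, from the same RefSeq transcript, gave the same order of the 8 groups.

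The sex difference of Ceacam10, as the log2 signal of females minus males in 1417074_at, was widest in Fabp6-/- (-1.38) and WT mice (-1.31) and narrower in Fabp2-/- (-0.54) and Fabp2-/-;Fabp6-/- mice (-0.40), each value with an SE of 0.18. WT females thus had 40.3% of the male level and Fabp2-/-;Fabp6-/- females 75.9%. Without that library of high Fabp6 signal, the difference in Fabp6-/- mice was -1.53. The Fabp2-/- difference rested on which male pool was used, since it was -0.19 without Fabp2-/- male replicate 1 and -0.88 without replicate 2. Without 1 of their own pools, the difference in Fabp2-/-;Fabp6-/- mice lay between -0.53 and -0.26. Subtracting the WT sex difference left 0.91 in Fabp2-/-;Fabp6-/-, 0.78 in Fabp2-/- and -0.07 in Fabp6-/- mice (SE 0.25 each), the last being -0.21 without that library. By this probe set the sex difference was narrower than WT in Fabp2-/-;Fabp6-/- mice, and in Fabp2-/- mice by an amount that hung on the male pool. It was of about the WT size in Fabp6-/- mice. It narrowed in opposite ways, with Fabp2-/- females above WT females in the one line and Fabp2-/-;Fabp6-/- males below WT males in the other.

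Against WT mice of the same sex, Fabp2-/- females had more Ceacam10, with a log2 difference of 0.96, which is 1.94 times the WT level. In Fabp2-/- males the difference was 0.18, with overlapping pools, and it was -0.17 without replicate 1 of that group and 0.53 without replicate 2. The Fabp6-/- mice had less, by -0.62 in males and -0.69 in females (-0.83 without that library). In Fabp2-/-;Fabp6-/- mice the difference was -1.43 in males, which left 37.2% of the WT level, and -0.51 in females, which left 70.2%. Without 1 WT or Fabp2-/-;Fabp6-/- female pool, the value in females lay between -0.71 and -0.31. The same WT pools served as controls for the 3 genotypes within a sex, so these values are not independent of each other.

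Set against the lines with 1 gene disrupted, the Fabp2-/-;Fabp6-/- mice lay lower than Fabp2-/- mice in both sexes, by a log2 difference of -1.61 in males and -1.47 in females. They lay lower than Fabp6-/- mice in males only, at -0.81, and in females the difference from Fabp6-/- mice was 0.18, or 0.32 without the library of high Fabp6 signal. Of the 14 pairs of groups described here, the pools did not overlap in 13 in probe set 1417074_at. These pairs include those by which Ceacam10 was selected, and nothing is read from their number.

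Probe set 1448573_a_at, which reads several transcripts of the gene, followed 1417074_at over the 16 pools (r = 0.985, with both probe sets on the same arrays). Its WT pools had 6.89 and 6.82 in males and 6.13 and 5.52 in females, and its Fabp2-/-;Fabp6-/- pools 5.67 and 5.62 in males and 5.38 and 5.47 in females. Its sex differences were -1.23 in Fabp6-/-, -1.03 in WT, -0.77 in Fabp2-/- and -0.22 in Fabp2-/-;Fabp6-/- mice (SE 0.20 each). The narrowing of the sex difference in Fabp2-/- mice was smaller here, at 0.27 (SE 0.29) against 0.78 in the first probe set, whereas in Fabp2-/-;Fabp6-/- mice it was 0.81 (SE 0.29). The third probe set, 1436565_at, has no accession in the annotation and did not share the pattern. Its signal lay between 5.74 and 6.32 in all pools, its r with the other two was 0.302 and 0.26, and its 4 sex differences lay between -0.16 and 0.18 (SE 0.13). The lowest signals of all 3 probe sets lay under the median of the array, and since the tables carry no detection call, how far they lie above background was not tested.

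Markers of other cells were set beside Ceacam10. Of a list of genes of the seminal vesicle, in which Ceacam10 is abundant, 7 of 9 were measured and 0 were called in any comparison. Over all genes, 3.33% were called in at least 1 of the 10 comparisons, so 0 of 7 says little. The summed signal (linear units) of the 7 was 180 to 199 over the male and 174 to 205 over the female pools. Of 12 leukocyte genes, 2, the T cell genes Cd8a and Cd3g, were called in any comparison, against the same 3.33% of all genes. The summed signal of the 12 was highest in Fabp2-/- males and lowest in Fabp2-/-;Fabp6-/- females. It was 4573 to 4907 in WT males, 4417 to 4447 in WT females, 5058 to 6908 in Fabp2-/- males and 4029 to 4408 in Fabp2-/- females. In Fabp6-/- mice it was 4546 to 4665 in males and 3980 to 4003 in females, and in Fabp2-/-;Fabp6-/- mice 4081 to 4276 and 3873 to 3955. Cd8a went against this sum in Fabp2-/- males, where it was called lower than in WT males (-0.55, limma adjusted p = 0.0238). In Fabp2-/-;Fabp6-/- mice Cd8a was called lower in males (-0.88, adjusted p = 0.000179) and females (-0.50, adjusted p = 0.0358) and Cd3g in males (-0.70, adjusted p = 0.045). A linear sum weighs the strongest gene most, here Jchain at a log2 signal of 11.38 to 12.04. Among the other leukocyte genes the highest signal was 9.19, that of Ms4a1, whose median was 6.83. The sum thus does not weigh the 12 genes alike. The part of these marker genes in the Ceacam10 values was not tested.

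The genes whose log2 signals were most like Ceacam10 over the 16 pools, among 1439 genes on 430A whose group means spanned at least 0.5, were Cd177, a surface glycoprotein of neutrophils (r = 0.959), Cyba, a subunit of the NADPH oxidase of phagocytes (0.936), Prss32, a serine protease (0.898), and Pglyrp1, a peptidoglycan recognition protein (0.883). Ckap4, a membrane protein of the endoplasmic reticulum (0.842), and the immunoglobulin segment Igkv8-30 (0.82) came next. The opposite pattern was seen for Gpr155 (-0.883), for Cubn, the cubilin receptor of intrinsic factor and cobalamin (-0.875), and for the cytochrome P450 gene Cyp2b10 (-0.871). All points share their arrays, and these genes were chosen for their likeness, so the values are a description. Without the 4 Fabp2-/-;Fabp6-/- pools, r was 0.97 for Cd177 and -0.854 for Cubn.

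**Figure D2:**
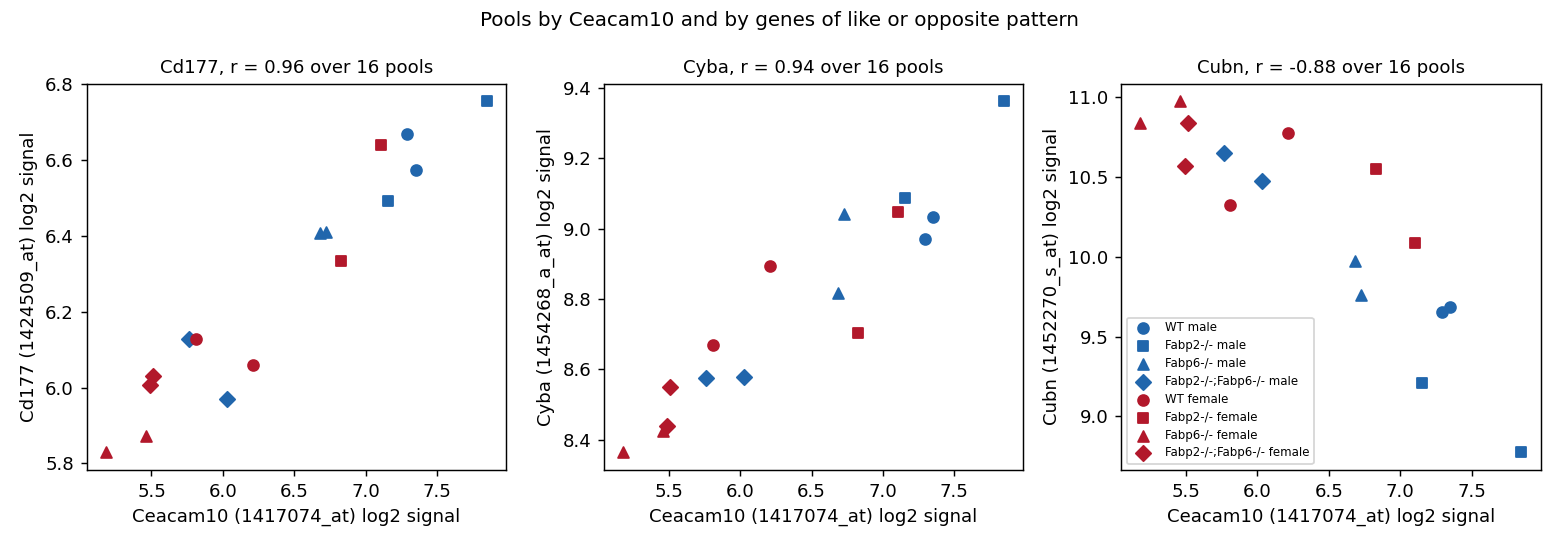
Log2 signal of Cd177, Cyba and Cubn (y axes) against that of Ceacam10 (x axes, probe set 1417074_at) in the 16 pools, coloured blue for males and red for females, with a marker for each genotype. Cd177 and Cyba rise with Ceacam10 over the pools and Cubn falls, and the selection of these genes by r makes this a description only.

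Cd177 was also the protein-coding gene next to Ceacam10 on chromosome 7. Its pools had log2 signals of 6.67 and 6.58 in WT males, 6.06 and 6.13 in WT females, 6.76 and 6.49 in Fabp2-/- males and 6.64 and 6.34 in Fabp2-/- females. In Fabp6-/- mice they had 6.41 and 6.41 in males and 5.83 and 5.87 in females, and in Fabp2-/-;Fabp6-/- mice 5.97 and 6.13 in males and 6.01 and 6.03 in females. Its sex difference was thus wide in WT (-0.53) and Fabp6-/- mice (-0.56, or -0.58 without the library of high Fabp6 signal) and nearly 0 in Fabp2-/-;Fabp6-/- mice (-0.03), on a narrower scale than that of Ceacam10. Of the 10 protein-coding genes on each side of the 4 family members, 39 different genes were measured, and 1, Cd177, was called in any of the 10 comparisons. Over all 18193 genes, taking 1 probe set each, 3.33% were called in at least 1 of these comparisons. The number of neighbours was set after the values were seen.

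For the other family members, a probe set was called when its adjusted p (limma, Benjamini-Hochberg per chip) was under 0.2 and its absolute log2 fold change over 0.5. Of the 12 tested, 2 were called, both for Ceacam1 and both lower in Fabp2-/-;Fabp6-/- than in WT females, a comparison in which 0.589% of all probe sets were called. None of the 12 was called in Fabp2-/-;Fabp6-/- against WT males (1.05% of all probe sets), in Fabp2-/- against WT males (0.473%) and females (0.52%), or in Fabp6-/- against WT males (0.303%) and females (0.289%). None was called between the sexes in WT (0.164%), Fabp2-/- (0.0639%), Fabp6-/- (0.264%) or Fabp2-/-;Fabp6-/- mice (0.0612%), or in the interactions of sex with the Fabp2-/- (0.0111%), Fabp6-/- (0.00278%) and Fabp2-/-;Fabp6-/- (0.00278%) genotypes. Of the 8 Ceacam1 probe sets, 1 had an unadjusted p under 0.05 in each of the WT, Fabp2-/- and Fabp6-/- sex comparisons and 3 in that of Fabp2-/-;Fabp6-/- mice, and 0 in any interaction. Against WT mice of the same sex the number was 0 in Fabp2-/- males, 1 in Fabp2-/- females, 1 in each sex of the Fabp6-/- mice, and 1 in males and 4 in females of the Fabp2-/-;Fabp6-/- mice. Without the library of high Fabp6 signal, it was 0 in the Fabp6-/- sex comparison and 3 in Fabp6-/- against WT females, with 0 called.

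Of the 8 Ceacam1 probe sets, 2 were called lower in Fabp2-/-;Fabp6-/- than in WT females and 0 in males, and both calls were lost at an FDR under 0.05. The called probe sets were 1425538_x_at, marked as open to cross-hybridization, and 1425675_s_at, marked as shared by several transcripts. In probe set 1425538_x_at, the Fabp2-/-;Fabp6-/- female pools had log2 signals of 10.38 and 10.25 and the WT female pools 11.01 and 10.88. The log2 fold change was -0.63 (SE 0.14, limma adjusted p = 0.0533). The groups did not overlap, and the female pools of the Fabp2-/- (11.01 and 10.99) and Fabp6-/- mice (11.12 and 10.66) lay near those of WT. In 1425675_s_at the Fabp2-/-;Fabp6-/- female pools had 10.27 and 9.72 and the WT female pools 10.57 and 10.46, a log2 fold change of -0.52 (SE 0.13, limma adjusted p = 0.114). Here the 2 pools of the Fabp2-/-;Fabp6-/- females lay far apart, and without replicate 2 of that group the fold change was -0.24 (adjusted p = 0.741). The first probe set kept -0.57 without that pool, with an adjusted p of 0.441. Both calls were also lost without WT female replicate 1, at -0.57 (adjusted p = 0.302) and -0.46 (0.369), and the second without WT female replicate 2, at -0.58 (0.237).

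**Figure D3:**
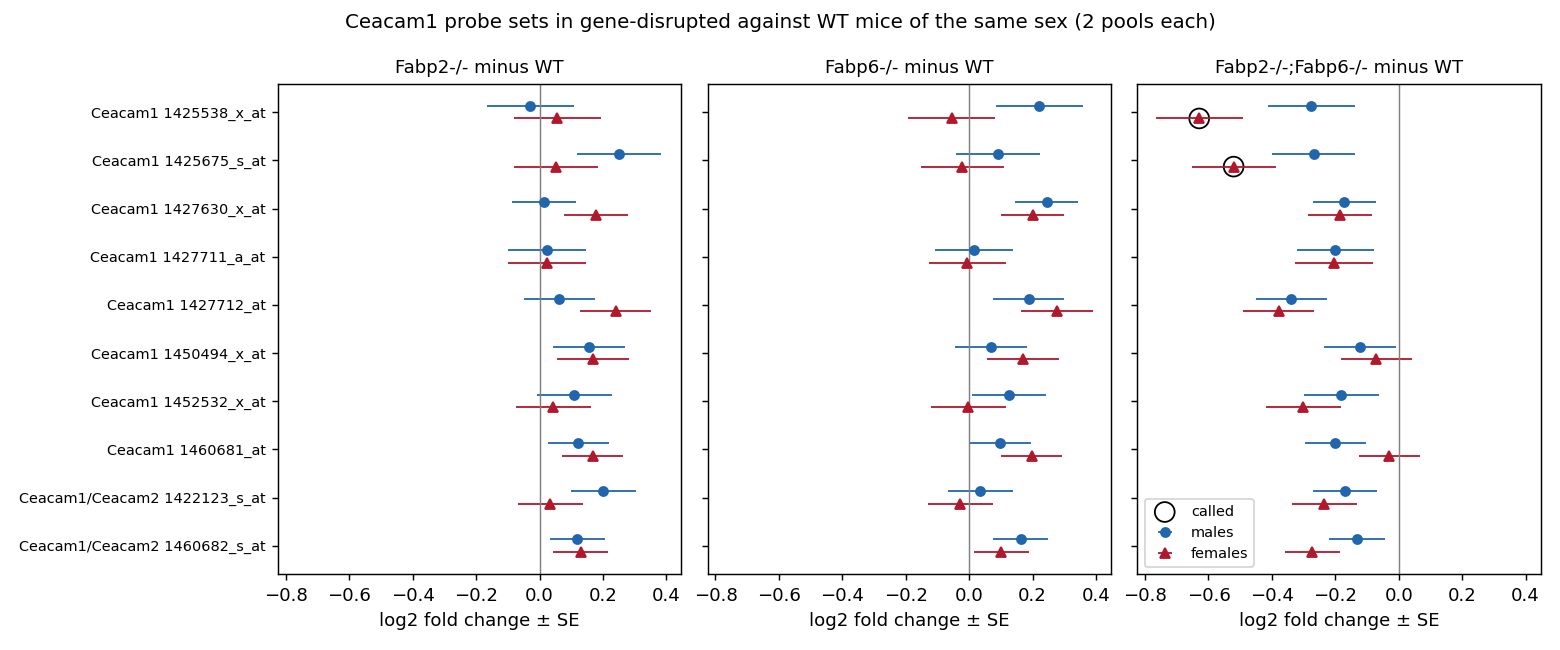
Log2 fold change ± SE (x axis) of the 8 Ceacam1 and 2 shared Ceacam1 and Ceacam2 probe sets (y axis) in Fabp2-/-, Fabp6-/- and Fabp2-/-;Fabp6-/- against WT mice of the same sex, males as blue circles and females as red triangles, with called probe sets ringed. In the Fabp2-/-;Fabp6-/- panel all points lie under 0, from -0.63 to -0.03, and 2 in females are called.

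The direction was the same over all 8 Ceacam1 probe sets in both sexes, which read overlapping transcripts of 1 gene and are not independent. In Fabp2-/-;Fabp6-/- against WT females their log2 fold changes ran from -0.63 to -0.03 with a median of -0.25, and in males from -0.34 to -0.12 with a median of -0.20, beside medians of 0.0091 and -0.00943 over all probe sets. The Ceacam1 probe sets of the highest signal, 1460681_at and 1450494_x_at, changed least in females, by -0.03 and -0.07. In males they had -0.20 and -0.12. Both Fabp2-/-;Fabp6-/- pools lay under both WT pools for 8 of 8 probe sets in males, against 24.9% of all probe sets, and for 5 of 8 in females, against 19.7%. Probe set 1427712_at, the Ceacam1 probe set with the largest interquartile range, had WT pools of 6.28 and 6.20 in males and 5.93 and 6.17 in females, and Fabp2-/-;Fabp6-/- pools of 5.96 and 5.84 in males and 5.82 and 5.52 in females. All its signals, at most 6.46, lay under the array medians of 6.57 to 6.62, and how far they lie above background was not tested. Its log2 fold changes of -0.34 in males (limma adjusted p = 0.176) and -0.38 in females (adjusted p = 0.179) missed the threshold on size. The sex by genotype interaction of Ceacam1 in these mice reached an adjusted p of at best 0.669, so a difference between females and males in these log2 fold changes was not shown.

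The 2 probe sets that name both Ceacam1 and Ceacam2 also had log2 fold changes below 0 in Fabp2-/-;Fabp6-/- mice, and neither was called. In 1460682_s_at the Fabp2-/-;Fabp6-/- pools had 11.01 and 11.03 in males and 10.91 and 10.76 in females, below all 12 pools of the other genotypes, the lowest of which had 11.06. Its log2 fold change was -0.27 in females (limma adjusted p = 0.216) and -0.13 in males (adjusted p = 0.581). In 1422123_s_at it was -0.23 (adjusted p = 0.406) and -0.17 (adjusted p = 0.53). That the 4 Fabp2-/-;Fabp6-/- pools lay below the other 12 held for both of these and for Ceacam1 1425675_s_at. In 1425675_s_at the margin was very narrow, with 10.3779 in the highest of the 4 pools. The lowest other pool, the library of high Fabp6 signal, had 10.3788. In the other 7 Ceacam1 probe sets 1 to 3 pools of other genotypes reached into their range. It thus held for 3 of 10 probe sets, which are not independent, against 0.55% of all probe sets. This share was computed after the values were seen. The signal of probe sets that 2 similar genes share, and of those marked as open to cross-hybridization, is uncertain as to which gene gave it.

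In the lines with 1 gene disrupted, Ceacam1 was not called and its values lay mostly on the other side of 0. In Fabp2-/- mice 7 of 8 probe sets were positive in males (median 0.09) and 8 of 8 in females (median 0.11). In Fabp6-/- mice 8 of 8 were positive in males (median 0.11) and 4 of 8 in females (median 0.08), or 8 of 8 in females, from 0.01 to 0.38, without the library of high Fabp6 signal. The lowest adjusted p over these 4 comparisons was 0.477, and they share WT pools. Between the sexes, the Ceacam1 probe sets were lower in females for 8 of 8 in Fabp2-/-;Fabp6-/- (median -0.21), Fabp6-/- (-0.15, or -0.07 without the library of high Fabp6 signal) and WT mice (-0.13) and for 7 of 8 in Fabp2-/- mice (-0.11). Ceacam10 had -1.31 in WT mice by 1417074_at. For Ceacam1, no adjusted p was under 0.613.

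Over the 16 pools, the 28 pairs of Ceacam1 probe sets correlated with r between 0.487 and 0.898, with a median of 0.808, and over the 12 pools without the Fabp2-/-;Fabp6-/- mice between -0.152 and 0.869, with a median of 0.549. The first Ceacam10 probe set had r of 0.469 to 0.657 with the Ceacam1 probe sets over 16 pools and 0.039 to 0.641 over 12. These probe sets share arrays, and those of Ceacam1 share probe sequence, so the values are a description.

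Ceacam2, by its own probe set 1421603_a_at, lay between 7.53 and 7.75 in all pools. The WT pools had 7.75 and 7.70 in males and 7.73 and 7.61 in females, and the Fabp2-/-;Fabp6-/- pools 7.63 and 7.73 in males and 7.75 and 7.67 in females. These groups overlapped in both sexes. Its log2 fold changes over the 10 comparisons lay between -0.09 and 0.04 (SE 0.08), and it was called in none of them.

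**Figure D4:**
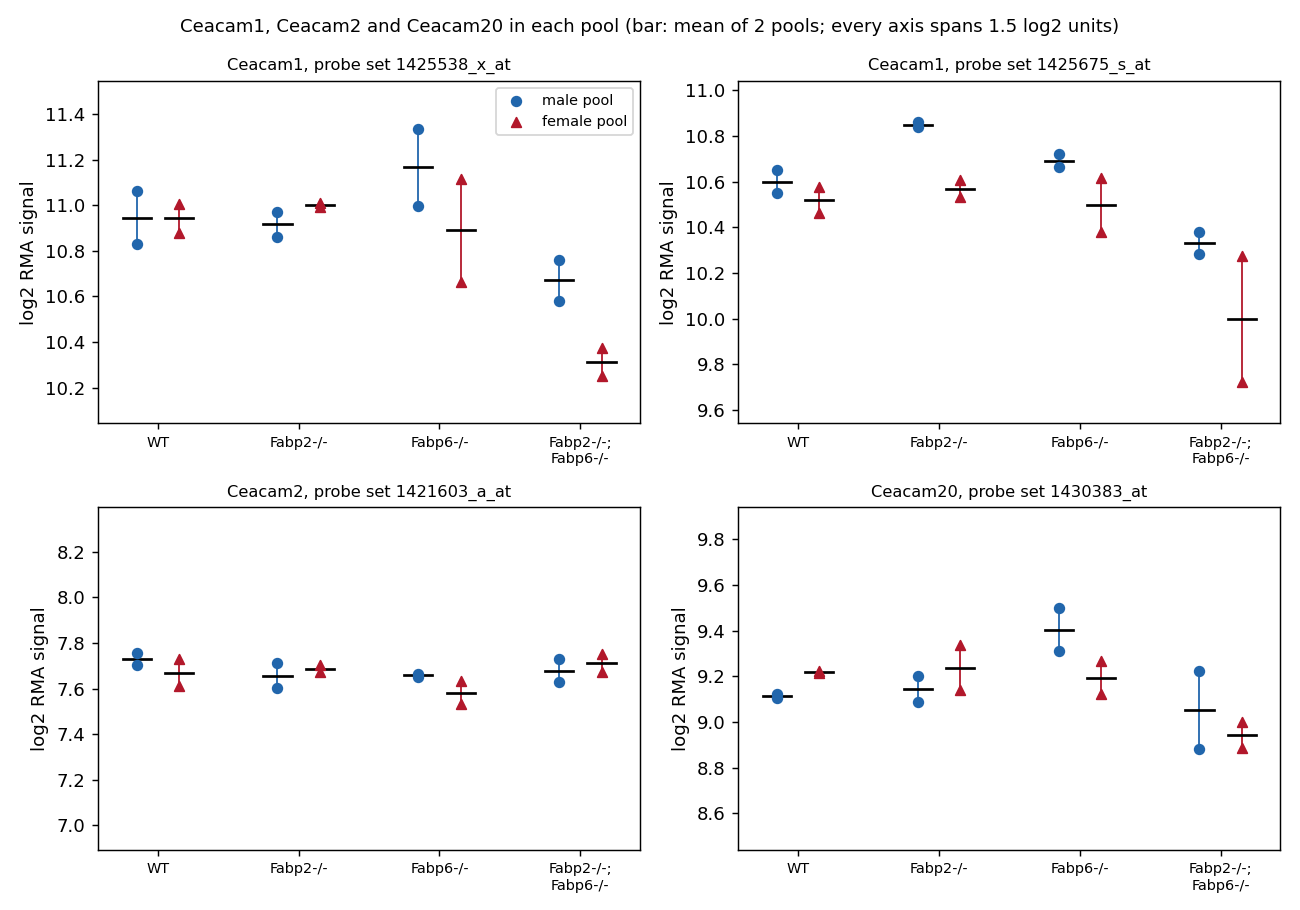
Log2 RMA signal (y axes, each spanning 1.5 units) of the 2 called Ceacam1 probe sets, Ceacam2 and Ceacam20 in each pool, by genotype (x axes), males as blue circles and females as red triangles, with a black bar at the mean of 2 pools. The Fabp2-/-;Fabp6-/- pools are low in both Ceacam1 panels, and the Ceacam2 pools stay between 7.53 and 7.75.

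Ceacam20, of the brush border, had WT pools of 9.12 and 9.11 in males and 9.22 and 9.21 in females. The Fabp6-/- male pools had 9.50 and 9.31, both above the WT males, and the log2 fold change was 0.29 (SE 0.10, limma adjusted p = 0.324). The Fabp2-/-;Fabp6-/- female pools had 8.89 and 9.0, both below the WT females, and the log2 fold change was -0.28 (SE 0.10, adjusted p = 0.284). Neither was called. The Fabp2-/- pools had 9.09 and 9.20 in males and 9.14 and 9.34 in females, the Fabp6-/- female pools 9.12 and 9.27, and the Fabp2-/-;Fabp6-/- male pools 9.22 and 8.88. Each of these groups overlapped with the WT pools of its sex.

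The counts of called genes in the lists that follow stand against 3.33% of all genes called in at least 1 of the 10 comparisons. Of 26 further Ceacam and Psg genes, 14 were measured with 1 probe set each and 0 were called in any of the 10 comparisons, and the median of their log2 fold changes lay between -0.05 and 0.04, beside -0.01 to 0.02 for all genes. Of 26 genes of Ceacam signalling, which include the phosphatases and kinases at the cytoplasmic tail of Ceacam1, 19 were measured and 0 were called, with medians of -0.08 to 0.03. The Ceacam20 phosphatase gene Ptprh was not among the genes measured. Of 16 genes of microvillar adhesion, 15 were measured and 2 were called. Calml4, a light chain of the intermicrovillar adhesion complex, was higher in Fabp2-/- males (log2 fold change 0.58, limma adjusted p = 0.00878) and females (0.53, adjusted p = 0.0187) and in Fabp2-/-;Fabp6-/- males (0.71, adjusted p = 0.000516) and females (0.63, adjusted p = 0.00319). Baiap2l1, which shapes microvillar actin, was lower in Fabp6-/- females than in males (-0.67, adjusted p = 0.158, and -0.95 with an adjusted p of 0.013 without the library of high Fabp6 signal).

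Of 26 measured genes of epithelial junctions, 1 was called, the desmosomal plaque gene Dsp, higher in Fabp2-/-;Fabp6-/- males (0.51, limma adjusted p = 0.0213). Of 16 measured genes of other immunoglobulin adhesion molecules, 1 was called, Gpa33, the A33 antigen of intestinal epithelium, lower in males of the Fabp6-/- (-0.64, adjusted p = 0.0243) and Fabp2-/-;Fabp6-/- lines (-0.69, adjusted p = 0.000949). Of 11 measured genes of Ceacam1 induction by interferon and related signals, 1 was called, the interferon regulatory factor Irf1, lower in Fabp2-/-;Fabp6-/- males (-0.55, adjusted p = 0.0097). The medians of these 3 lists lay between -0.11 and 0.11.

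Markers of other cells were also set beside Ceacam1. Of 8 epithelial marker genes, 0 were called in any comparison, and their summed signal was 23458 to 24260 in WT and 23626 to 24397 in Fabp2-/-;Fabp6-/- females, and 25047 to 25609 and 24529 to 26331 in males. Of 10 stomach genes, 5 (Gkn1, Gkn2, Gkn3, Muc5ac and Tff1) were called higher in Fabp2-/-;Fabp6-/- males. The summed stomach signal was 7777 to 11423 in WT and 12456 to 17535 in Fabp2-/-;Fabp6-/- females, and 5233 to 10451 and 11873 to 17076 in males. It was also above WT in Fabp6-/- mice, with 12735 to 15093 in females and 11499 to 13201 in males. Muc5ac was called higher in Fabp6-/- males (log2 fold change 1.03, limma adjusted p = 0.159) and females (0.98, adjusted p = 0.187), the latter call being lost without the library of high Fabp6 signal (0.89, adjusted p = 0.231). In Fabp2-/- mice the sum was 8830 to 11841 in females and 7557 to 9453 in males, and Gkn3 was called higher in males (0.75, adjusted p = 0.0129).

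Several sums of other cell types lay higher in Fabp2-/-;Fabp6-/- than in WT mice of both sexes without overlap. Such a separation is common with 2 pools against 2. Of all probe sets, 21.7% in males and 22.7% in females lay higher without overlap in these mice. A linear sum also weighs its strongest genes most. That of 8 liver genes was 641 to 947 against 431 to 445 in males and 710 to 1085 against 499 to 621 in females, and in males Alb (log2 fold change 1.45, limma adjusted p = 0.0526) and Ttr (1.21, adjusted p = 0.00273) were called higher. That of 4 Paneth cell genes was 12608 to 13693 against 10625 to 11329 in males and 14111 to 15216 against 10929 to 12296 in females, with 0 genes called in any comparison. That of 7 goblet cell genes was 27069 to 27721 against 24099 to 24628 in males and 25871 to 27117 against 23409 to 25294 in females, where Spink4 was called higher (0.60, adjusted p = 0.0152). That of 9 enteroendocrine genes was 3947 to 4264 against 3133 to 3286 in males, where Nts was called higher (0.85, adjusted p = 0.000949), and 3736 to 4226 against 3614 to 3641 in females. The leukocyte sum lay lower in these mice in both sexes, as did that of 9 stroma and muscle genes (4593 to 4656 against 4716 to 4982 in males, 4686 to 4859 against 5075 to 5729 in females). Of all probe sets, 24.9% in males and 19.7% in females lay lower without overlap. The median log2 fold change of the stroma and muscle genes was -0.036 in males and -0.151 in females, beside -0.0088 and 0.0176 for all genes. That of 10 pancreas genes lay lower in females (30278 to 35780 against 48833 to 52105) and overlapped in males (25213 to 50670 against 21092 to 33745). The goblet cell sum also lay above WT in Fabp6-/- mice, with 25426 to 26525 in males and 27540 to 28689 in females. Over all probe sets, 20.4% in males and 14.1% in females lay above WT without overlap in this line. The median log2 fold change of the 7 goblet cell genes was 0.098 in Fabp6-/- females and -0.017 in Fabp6-/- males. The male sum thus does not speak for most of these genes. Muc2 was called higher there in males (0.55, limma adjusted p = 0.0237) and females (0.57, adjusted p = 0.0336). The liver sum lay above WT in Fabp6-/- females (686 to 806) and overlapped in males. The Paneth and enteroendocrine sums of Fabp6-/- mice did not lie above WT. The part of any of these lists in the Ceacam1 values was not tested. Over any comparison, 2 of the 8 liver, 2 of the 7 goblet cell, 1 of the 9 enteroendocrine, 1 of 10 pancreas and 0 of 9 stroma and muscle genes were called. The pancreas gene was Ctrc, higher in Fabp2-/- than in WT males (3.47, limma adjusted p = 7.54e-07). It was lower in Fabp2-/- females than in Fabp2-/- males (-2.36, limma adjusted p = 0.000102).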

How the data were processed

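Total RNA of the small intestine of 16 pools, each of 2 mice, was measured on Affymetrix 430A and 430B chips (32 arrays), with 2 pools for each genotype and sex. As deposited, the values are log2 signals, made by the authors with the background correction and quantile normalization of RMA, each chip on its own. The RMA version was not given in the sources used here. The deposited series matrix held the same values. Each chip was fitted here over its 16 arrays and 8 group means with limma 3.58.1 in R 4.3.3 (8 residual degrees of freedom, moderated two-sided test). The fit covered 21071 probe sets on 430A and 14906 on 430B that name a gene, of which 691 and 245 name several. Benjamini-Hochberg adjustment was made within each chip and comparison, and the threshold was an adjusted p under 0.2 with an absolute log2 fold change over 0.5. The 10 comparisons were females with males in each genotype and each disrupted genotype with WT mice of the same sex, beside 3 interactions. The number of arrays limits the precision, and p-values measure the spread between pools of 2 mice.

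All member probe sets were described. The genes like Ceacam10 were the 6 with the highest and the 3 with the lowest r, and the called genes of each list were named, though not in every comparison. Lists were read with 1 probe set per gene, that of the largest interquartile range. The members and lists were chosen with earlier results of these data known. Start regions were aligned with Biopython 1.88 in Python 3.11.15. The replicate numbers of 28 pairs of groups gave correlations of their deviations of -0.267 to 0.331 (430A) and -0.248 to 0.292 (430B), so they were not taken to pair pools. The alternatives were 1 probe set per gene by interquartile range, only probe sets naming 1 gene, a filter at the median interquartile range, a log2 signal of at least 6 in at least 2 arrays, only the arrays compared, adjustment over both chips, the series matrix values, a replicate block, cyclic loess, an intensity trend with a robust prior, an FDR under 0.05 and omission of each pool in turn. The fit was tested on simulated data.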

Additional observations from a re-analysis of the deposited data

Results flagged for a closer look

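In 2 of the 15 probe sets, against 21.4% of all 35977, all female pools lay on one side of the male pools in one genotype and on the opposite side in another. In Ceacam1 1425538_x_at the sex difference (females minus males, log2) was 0.08 in Fabp2-/- and -0.36 in Fabp2-/-;Fabp6-/- mice, and this difference between the lines was not tested. In Ceacam20 it was 0.11 in WT and -0.21 in Fabp6-/- mice (-0.28 when the female library of high Fabp6 signal, replicate 2, was left out). The sex by genotype interaction of Ceacam20 in Fabp6-/- against WT mice was -0.31 (SE 0.15, limma adjusted p = 0.865) and was not called.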

How the results depend on the processing

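Of the 12 tested probe sets, the 2 called in Fabp2-/-;Fabp6-/- against WT females became 0 when 1 probe set was kept per gene by interquartile range, and 0 at an FDR under 0.05. With 1 probe set per gene, 3 members were tested and neither called probe set was kept. Ceacam1 was then read by 1427712_at, whose signals lay under the array median and whose log2 fold change of -0.38 missed the threshold on size. Omission of 1 pool gave 0 to 3, with 0 without WT female replicate 1 or Fabp2-/-;Fabp6-/- female replicate 2 and 1 without WT female replicate 2. The fold changes of the 2 then lay between -0.80 and -0.24. Between the sexes of Fabp2-/-;Fabp6-/- mice, where 0 were called, omission of 1 pool gave 0 to 1, with 1 without Fabp2-/-;Fabp6-/- female replicate 1. Of 351 counts under the alternatives, these 6 moved. The other 345 equalled the reported count, except that 3 were called against WT females without Fabp2-/-;Fabp6-/- female replicate 1. With the replicate number as a block, 2 were called in Fabp2-/-;Fabp6-/- against WT females and 0 in each of the other comparisons, and the numbers do not pair the pools. For Ceacam10 probe set 1417074_at, 246 of 250 differences stayed within 1 residual SD, and the 4 that moved were the Fabp2-/- sex difference and the Fabp2-/- difference from WT in males without either Fabp2-/- male pool. Most of the 250 could not move, since a difference of group means changes only with cyclic loess or omission of a pool of the groups compared. Their number is thus no measure of how stable the Ceacam10 differences are. With 2 pools in a group, an omitted pool leaves a lone pool that is assumed to vary like the other groups. The RMA tables give no signal over background.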
